A study of Mus musculus with 4 samples.

Results

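The heat-shock and DNAJ chaperones are the genes whose names begin with Hspa, Hspb, Hspd, Hspe, Hsph, Hsp90 or Dnaj, pseudogenes left out. The arrays carried 73 such genes on 110 probes. Each gene is described by its brightest probe among those that the scanner software marked as well above background on at least 1 array, which left 64 genes, 61 of them well above background on all 4 arrays. The whole series held 22929 genes or transcripts by the same criterion, 19111 of them on all 4 arrays. The choice used brightness and names only, not differences between genotypes.

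The RNA came from bone marrow LSK cells (negative for lineage markers, positive for Sca-1 and cKit), the marrow fraction with the haematopoietic stem cells and multipotent progenitors, of male C57BL/6 mice aged 12 weeks. The 4 genotypes were Aspp1-/-p53-/- (from Mx1-Cre(+)Aspp1-/-p53flox/flox mice), p53-/- (from Mx1-Cre(+)p53flox/flox mice), Aspp1-/- and WT. Aspp1 is a partner of the tumour suppressor p53 and is encoded by Ppp1r13b. All mice, WT included, had been given pIpC, an RNA mimic that induces interferon and so switches on Mx1-Cre, in 5 injections from 8 weeks of age, with 4 weeks between treatment and cell isolation. The labels read 403 μg of pIpC for Aspp1-/-p53-/-, 402 μg for p53-/-, 401 μg for Aspp1-/- and 400 μg for WT, while the design text gives 400 μg throughout. Mx1-Cre also acts in cells other than LSK cells, and Mx1-Cre was present in the p53-lacking mice alone, so that loss of p53 and presence of Cre cannot be told apart. Each array held a pool of RNA from 3 mice, and there was 1 array per genotype, so no difference here has a spread between replicates.

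The 4 arrays lay on 1 slide, with both p53-lacking arrays in row 2 and the others in row 1, so that slide row and p53 cannot be told apart either. Between 50.3% and 53.3% of probes were well above background, and no spot was saturated. Against WT, the Ppp1r13b probe stood at a log2 difference of −2.59 in Aspp1-/-p53-/- and −2.62 in Aspp1-/- cells, and the Trp53 probe at −2.02 in Aspp1-/-p53-/- and −2.18 in p53-/- cells. Both lie on the side that the genotypes give, and the position of the probes relative to the deleted parts is not known here. All 12 stem cell and LSK markers examined, Kit and Ly6a (Sca-1) among them, were well above background on every array, and their median difference from WT lay between −0.01 and 0.05. Granulocyte markers stood apart on 1 array: 13 of 14 lay below WT in Aspp1-/-p53-/- cells, 8 of them past 2-fold (median −1.58, beside −0.16 in p53-/- and −0.19 in Aspp1-/- cells), and Ctsg lay above it, at 0.23. The 5 measured markers of stroma and endothelium had medians of −0.58, −0.21 and −0.36 in Aspp1-/-p53-/-, p53-/- and Aspp1-/- cells. Lowest in Aspp1-/-p53-/- cells were the dim Cxcl12, at −2.20, −1.35 and −0.77 in that order, and Vcam1, at −2.05, −0.68 and −0.78. Pecam1 was at 0.05, 0.16 and −0.06. B cell markers had medians of 0.08, 0.33 and −0.40 on the same arrays and monocyte and dendritic markers 0.25, 0.23 and −0.28, while the medians of T and NK, erythroid and megakaryocyte markers lay between −0.22 and −0.02. The part of these cells in the chaperone differences was not tested. In bulk RNA of this kind, fewer cells of a type and less RNA per cell cannot be told apart.

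Molecular chaperones bind unfolded stretches of other proteins and help them to fold, to cross membranes or to be degraded. HSP70 proteins do so in cycles of ATP hydrolysis that J-domain proteins (the DNAJA, DNAJB and DNAJC families) start and that nucleotide exchange factors such as HSP110 end, HSP90 finishes the folding of kinases and transcription factors, p53 among its clients, and small heat-shock proteins hold unfolded proteins without ATP. The inducible members are switched on by heat-shock factor 1 (HSF1), which binds inverted repeats of the bases GAA, called heat-shock elements. Haematopoietic stem cells make protein slowly and are known to be sensitive to the build-up of misfolded protein.

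Promoter sequences are shown for 5 genes. Against WT, the inducible HSP70 gene Hspa1a and the small heat-shock gene Hspb1 were highest in mutant cells among chaperones well above background throughout. Lowest among these were Hsph1 in p53-/- and Dnajb1 in Aspp1-/-p53-/- cells. Hspe1 is shown for its element, the longest of those printed, and not for its differences. Each is the 250 bases before the transcription start (GRCm38.p6, from RefSeq, 5′ to 3′ on the gene's strand), with GAA and TTC units of a 2-unit heat-shock element in capitals. They lie at chr17:34972157-34972406 (minus strand) for Hspa1a, chr5:135887669-135887918 (plus) for Hspb1, chr5:149636337-149636586 (minus, the first of 2 starts) for Hsph1, chr8:83607925-83608174 (plus, the first of 2 starts) for Dnajb1 and chr1:55087898-55088147 (plus) for Hspe1.
Hspa1a: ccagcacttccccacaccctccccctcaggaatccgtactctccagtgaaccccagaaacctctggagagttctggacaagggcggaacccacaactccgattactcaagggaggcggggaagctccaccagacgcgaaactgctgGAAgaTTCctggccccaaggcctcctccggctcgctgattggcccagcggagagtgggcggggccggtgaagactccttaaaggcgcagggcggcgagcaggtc
Hspb1: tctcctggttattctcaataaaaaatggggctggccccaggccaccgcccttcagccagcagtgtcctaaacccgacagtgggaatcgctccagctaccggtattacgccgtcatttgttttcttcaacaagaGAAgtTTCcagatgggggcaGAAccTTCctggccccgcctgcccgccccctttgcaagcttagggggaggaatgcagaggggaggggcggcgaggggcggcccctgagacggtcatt
Hsph1: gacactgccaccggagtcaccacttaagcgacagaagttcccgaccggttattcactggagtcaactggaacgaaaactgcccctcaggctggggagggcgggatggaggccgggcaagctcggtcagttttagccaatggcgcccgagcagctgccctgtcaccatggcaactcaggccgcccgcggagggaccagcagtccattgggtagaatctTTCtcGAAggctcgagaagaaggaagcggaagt
Dnajb1: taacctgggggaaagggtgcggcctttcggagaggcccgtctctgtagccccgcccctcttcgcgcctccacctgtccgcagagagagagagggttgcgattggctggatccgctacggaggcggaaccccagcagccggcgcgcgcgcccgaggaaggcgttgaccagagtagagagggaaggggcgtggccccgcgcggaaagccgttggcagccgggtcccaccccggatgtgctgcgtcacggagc
Hspe1: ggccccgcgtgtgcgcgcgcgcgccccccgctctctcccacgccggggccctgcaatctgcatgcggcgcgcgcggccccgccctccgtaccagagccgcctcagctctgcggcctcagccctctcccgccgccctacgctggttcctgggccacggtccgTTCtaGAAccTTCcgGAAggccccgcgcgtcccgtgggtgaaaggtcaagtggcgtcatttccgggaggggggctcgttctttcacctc

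The motif searched was GAANNTTC or TTCNNGAA, 2 inverted units with 2 bases between them, each of which reads the same on the other strand. Hspa1a had 1 match, 104 to 97 bases before the start, and Hspb1 had 2, at 117 to 110 and 97 to 90 bases. Hsph1 had 1 match at 33 to 26 bases, and neither Dnajb1 window had one. Hspe1 had 3 overlapping matches at 89 to 72 bases, which together make 4 inverted units. Hspe1 and Hspd1, the mitochondrial chaperonin pair, are transcribed away from each other, and the window of the second Hspd1 start held the same 18 bases, chr1:55088059-55088076, at 144 to 127 bases before that start. Of the 73 chaperone genes 59 were in the promoter table, and 13 of them (22.0%) held the 2-unit motif in some window, against 14.5% of 27025 genes in all. The 3-unit motif, GAANNTTCNNGAA or TTCNNGAANNTTC, was in 3 chaperone genes (Dnajb6, Hspd1 and Hspe1), or 5.08%, against 0.514% of all genes. A match is a string of letters and not a measured binding site.

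Hspa1a encodes the stress-inducible HSP70. Its probe (NM_010479, chromosome 17, 35107117 to 35107176, minus strand, mm9) is also listed for NM_010478, the transcript of the neighbouring copy Hspa1b, so the 2 genes share this reading. The processed signal was 11189 in Aspp1-/-p53-/-, 9176 in p53-/- and 8647 in Aspp1-/- cells, against 6960 in WT cells. Every mutant array lay above WT, and the array lacking both genes was the highest. After each array was scaled to its 75th percentile, the log2 difference from WT was 0.78 in Aspp1-/-p53-/-, 0.37 in p53-/- and 0.25 in Aspp1-/- cells, each with a scanner error of 0.20, the software's estimate for the scan, which does not cover the mice. In Aspp1-/-p53-/- cells that is 1.71-fold. Against the single mutants, the double mutant was higher by 0.40 than p53-/- and by 0.53 than Aspp1-/- cells. The 4 arrays differed from additive effects of the 2 losses by 0.16 ± 0.29 (scanner error). Under the 7 other ways of processing, the difference of Aspp1-/-p53-/- from WT stayed between 0.72 and 0.78, while that of p53-/- from WT was 0.25 with each array set to its median. Hspa1a has 1 probe, so averaging a gene's probes, or keeping those above background on every array, could not change these values.

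Hspb1 encodes HSP27, a small heat-shock protein that holds unfolded proteins and caps actin filaments. Its probe (NM_013560, chromosome 5, 136365366 to 136365425, plus strand, mm9) gave a signal of 4615 in Aspp1-/-p53-/-, 5804 in p53-/- and 5661 in Aspp1-/- cells, against 3287 in WT cells. All 3 mutant arrays lay above WT, and the double mutant was not the highest of them. The log2 differences from WT were 0.58 in Aspp1-/-p53-/-, 0.80 in p53-/- and 0.72 in Aspp1-/- cells (scanner error 0.20 each). Loss of Aspp1 thus went with −0.21 (−0.14 with each array set to its median) where p53 was already absent and with 0.72 where it was present, and the value that sets one against the other was −0.93 ± 0.29 (scanner error). With 1 array per genotype that value has no test. Of the 61 chaperones on all arrays, Hspb1 and Hspa1a spanned the widest ranges over the 4 arrays, 0.80 and 0.78, and were the 2 whose range reached 1.5-fold, or 0.585 on the log2 scale.

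**Figure D1:**
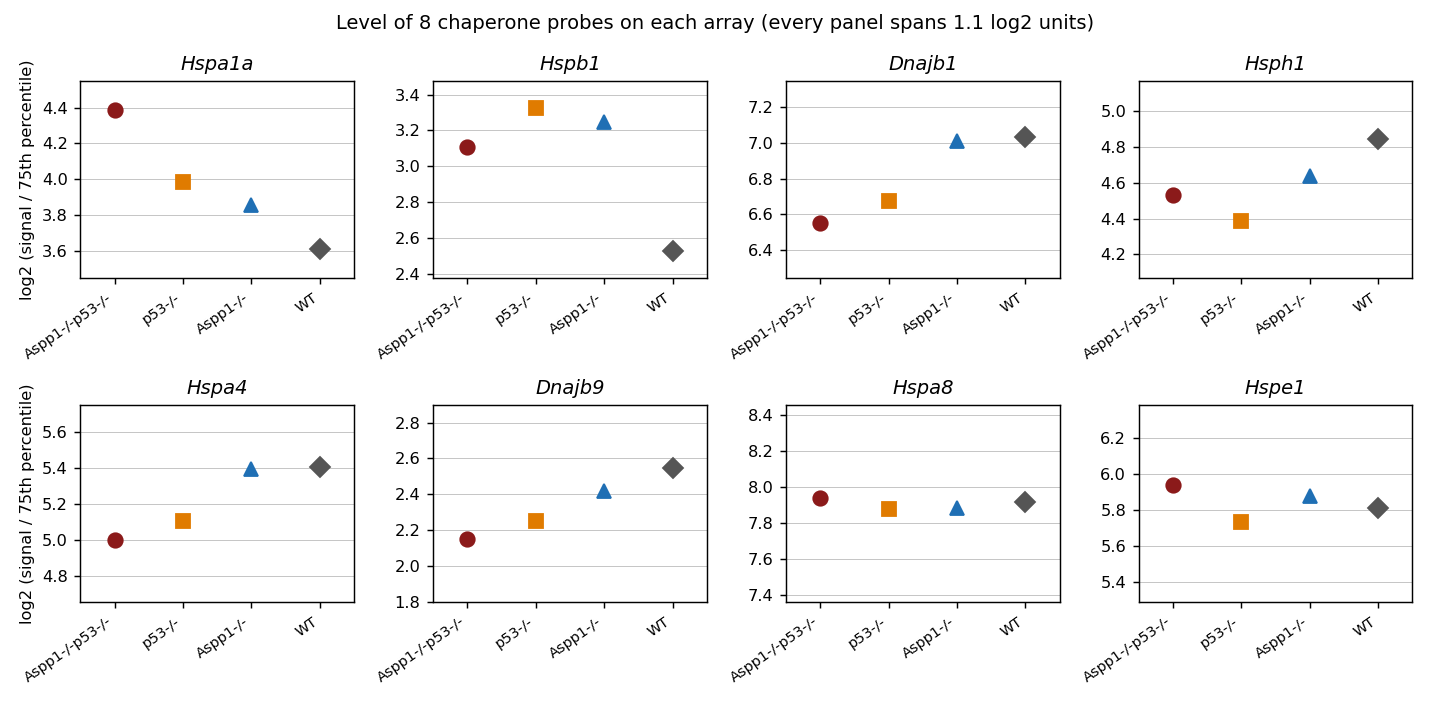
Log2 signal relative to the array's 75th percentile (vertical axis) of 8 chaperone probes on the arrays of Aspp1-/-p53-/-, p53-/-, Aspp1-/- and WT LSK cells, 1 point per array; panels differ in level but not in span. Hspa1a and Hspb1 are above WT on all 3 mutant arrays, Dnajb1, Hsph1, Hspa4 and Dnajb9 are lower on both p53-lacking arrays than on the other 2, and the 4 Hspa8 points lie within 0.06.

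Dnajb1 encodes HSP40, the inducible J-domain partner of HSP70. Its probe (NM_018808, chromosome 8, 86135660 to 86135719, plus strand, mm9) gave 50259 in Aspp1-/-p53-/- and 59174 in p53-/- cells, against 77024 in Aspp1-/- and 74720 in WT cells. Both p53-lacking arrays were below both arrays with p53. The log2 difference was −0.48 for Aspp1-/-p53-/- and −0.36 for p53-/- against WT, and −0.46 for Aspp1-/-p53-/- against Aspp1-/- (scanner error 0.20 each), while Aspp1-/- against WT was at −0.02.

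Hsph1 encodes HSP110, a nucleotide exchange factor of HSP70. Its signal (NM_013559, chromosome 5, 150419744 to 150419803, minus strand, mm9) was 12387 in Aspp1-/-p53-/-, 12137 in p53-/- and 14860 in Aspp1-/- cells, against 16394 in WT cells. The p53-/- array was the lowest and WT the highest. The log2 differences from WT were −0.31, −0.46 and −0.21 in that order of genotypes, and the other Hsph1 probe gave −0.36, −0.51 and −0.27. Both probes therefore ordered the 4 arrays the same way.

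Hspa4, a relative of HSP110 with the same exchange function, gave 17114 in Aspp1-/-p53-/- and 19977 in p53-/- cells, against 25132 in Aspp1-/- and 24201 in WT cells on its brightest probe (NM_008300, chromosome 11, 53075085 to 53075144, minus strand, mm9). Its log2 difference of Aspp1-/-p53-/- from WT was −0.41 there, but 0.13 and 0.11 on its other 2 probes. Those probes were highest in Aspp1-/- cells, at 0.63 and 0.30 above WT, where the brightest was at −0.01. For Aspp1-/-p53-/- against Aspp1-/- the 3 probes were on the same side of 0, at −0.40, −0.49 and −0.19. The Hspa4 result against WT therefore depends on the probe.

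Dnajb9 encodes ERdj4, a J-domain protein of the endoplasmic reticulum that is induced by unfolded protein there. Its signal (NM_013760, chromosome 12, 45307313 to 45307372, minus strand, mm9) was 2374 in Aspp1-/-p53-/- and 2756 in p53-/- cells, against 3189 in Aspp1-/- and 3335 in WT cells. Differences from WT were −0.40, −0.30 and −0.13 for Aspp1-/-p53-/-, p53-/- and Aspp1-/-, and −0.60, −0.25 and −0.10 on the other Dnajb9 probe. The 2 probes gave the same order of arrays, with Aspp1-/-p53-/- lowest.

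The housekeeping chaperones differed from WT by less than the scanner error. Hspa8, the constitutive HSP70 of the cytosol, had a signal of 131480 in Aspp1-/-p53-/-, 136330 in p53-/-, 141160 in Aspp1-/- and 137770 in WT cells, and over its 3 probes and the 5 comparisons its log2 differences lay between −0.08 and 0.06. Hsp90ab1, the constitutive HSP90, differed from WT by −0.08, −0.11 and −0.01 in Aspp1-/-p53-/-, p53-/- and Aspp1-/- cells, and Hsp90aa1, the inducible HSP90, by −0.07, −0.15 and 0.01. Hsp90b1, the HSP90 of the endoplasmic reticulum, was at −0.03, −0.10 and 0.12. Hspa5 (BiP), the HSP70 of the same compartment, had signals of 76406, 87759, 100860 and 92263 in Aspp1-/-p53-/-, p53-/-, Aspp1-/- and WT cells, or −0.18, −0.10 and 0.06 against WT. Each of these differences from WT is smaller than its scanner error of 0.20, but Hspa5 in Aspp1-/-p53-/- against Aspp1-/- cells was past it, at −0.24.

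**Figure D2:**
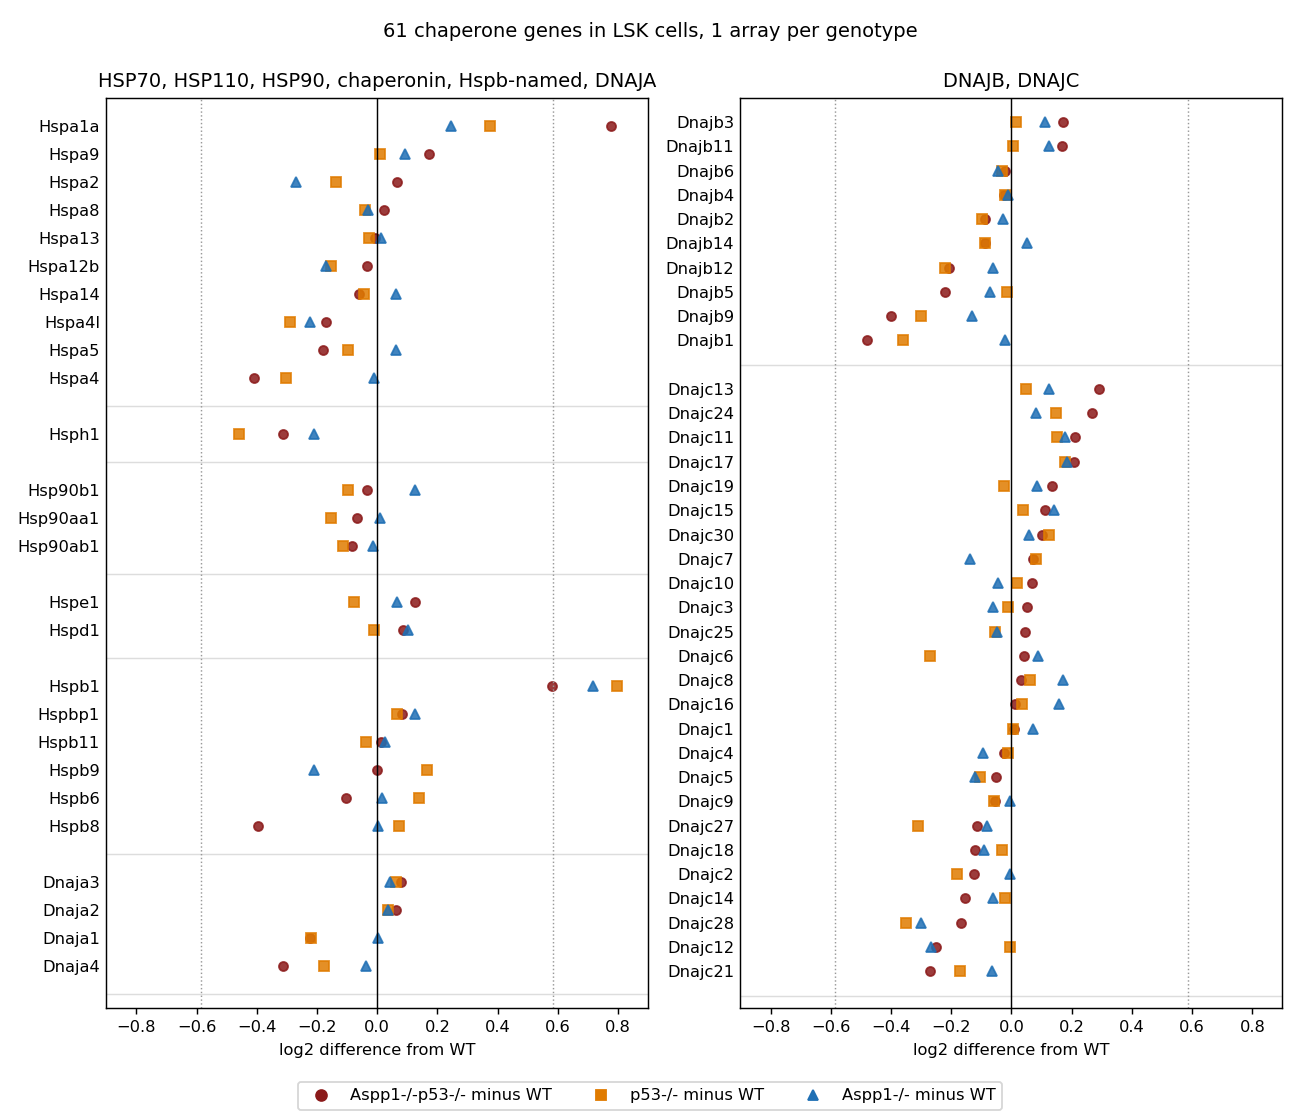
Log2 difference from WT (horizontal axis) of the 61 chaperone genes well above background on all 4 arrays, by family and in order of the Aspp1-/-p53-/- value, with 1 point per mutant array; dotted lines mark 1.5-fold. Near or past the right-hand dotted line are Hspa1a in Aspp1-/-p53-/- cells and Hspb1 on all 3 mutant arrays, and no point reaches the left-hand one.

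Among the 64 chaperones, none but Dnajc5b passed 2-fold in any of the 5 comparisons. In the whole series, 2-fold either way was passed by 3.46% of genes in Aspp1-/- against WT, 5.11% in p53-/- against WT, 5.94% in Aspp1-/-p53-/- against WT, 5.78% in Aspp1-/-p53-/- against p53-/- and 5.62% in Aspp1-/-p53-/- against Aspp1-/-. Dnajc5b, a relative of the cysteine string protein, was well above background on the p53-/- array alone, with 53.2 there and signals of 5.06 in Aspp1-/-p53-/-, 4.23 in Aspp1-/- and 3.95 in WT cells. Its log2 difference was 1.63 or more for p53-/- against WT and −1.11 or less for Aspp1-/-p53-/- against p53-/-, each counted from the dimmest signal that still cleared background on the dimmer array. The other Dnajc5b probe was not well above background on any array.

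At 1.5-fold, Hspb1 and Dnajc5b were past the rule in p53-/- against WT, where 8.93% of all genes were. Aspp1-/- against WT had Hspb1 above it and Hspbap1 below it, with 6.76% of all genes. Hspbap1, an HSP27-binding protein, was well above background in WT cells alone (signal 26.4, against 14.5 in Aspp1-/- cells), so its −0.94 is a bound. Aspp1-/-p53-/- against WT had Hspa1a, with Hspb1 just under the rule, where 11.9% of all genes passed it. Aspp1-/-p53-/- against p53-/- had Dnajc5b alone (9.93% of all genes), and Aspp1-/-p53-/- against Aspp1-/- had no chaperone (10.2%). In all 10 combinations of comparison and rule, the share of chaperones past it was below that of all genes. Many calls over all genes are of dim probes, and over genes well above background on every array 1.5-fold in Aspp1-/-p53-/- against WT was passed by 7.04% of all genes and by 1 of 61 chaperones.

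The differences of the chaperones covered a narrower range than those of the whole series, to which they were not matched for brightness. Over genes measured on every array, log2 differences from WT had a standard deviation of 0.214 for 61 chaperones and 0.357 for all 19111 genes in Aspp1-/-p53-/-, 0.186 and 0.265 in p53-/-, and 0.151 and 0.236 in Aspp1-/- cells. The range over the 4 arrays was under 0.25 for 43 chaperones (70.5%) and 58.6% of all genes, with medians of 0.17 and 0.21. Chaperones with the narrowest ranges were Dnajb4, at 0.03, and Hspa13, a microsomal HSP70 relative, at 0.04. The scanner's error of a single difference was 0.20 at the median. More than 2 such errors separated 4 of 61 chaperones in Aspp1-/-p53-/- from WT, namely Hspa1a, Hspb1, Dnajb1 and Hspa4. They also separated Hspb1 and Hsph1 in p53-/- from WT, Hspb1 in Aspp1-/- from WT, and Hspa1a and Dnajb1 in Aspp1-/-p53-/- from Aspp1-/-. The share of all genes past 2 errors was not computed, so these genes are not shown to stand out from the series.

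By family, 8 of the 10 measured DNAJB genes lay below WT in Aspp1-/-p53-/- and in p53-/- cells and 7 did in Aspp1-/- cells, with medians of −0.09, −0.06 and −0.03. Their exceptions on the p53-lacking arrays were Dnajb3, a testis gene, and Dnajb11, an endoplasmic reticulum partner of BiP, both at 0.17 in Aspp1-/-p53-/- cells. With each array set to its median, the DNAJB median in Aspp1-/- cells turned to 0.01, while both p53-lacking arrays kept medians below WT under every setting tried. The 3 HSP90 genes were below WT on both p53-lacking arrays, except that 1 of them turned above it in Aspp1-/-p53-/- cells under quantile normalization. Of 11 HSP70-family genes 8 lay below WT in p53-/- cells, with a median of −0.04 and a highest value of 0.55 for Hspa1l, a testis-enriched HSP70, at a signal of 30.3 against 20.4. The 4 DNAJA genes divided: Dnaja1 and Dnaja4, cytosolic partners of HSP70, were at −0.22 and −0.31 in Aspp1-/-p53-/- cells, while Dnaja2 and the mitochondrial Dnaja3 were at 0.06 and 0.08. The 25 DNAJC genes well above background on every array, the most diverse class, had medians of 0.03, −0.01 and 0.00 in Aspp1-/-p53-/-, p53-/- and Aspp1-/- cells. Their ends in Aspp1-/-p53-/- cells were Dnajc13, an endosomal protein, at 0.29, and Dnajc21, a factor of ribosome assembly, at −0.27. Over all chaperones the median difference from WT was −0.02, −0.03 and 0.00 for the same genotypes, and over all genes it was 0.02, 0.02 and 0.01.

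A group of 7 mitochondrial chaperones lay on the other side of WT from most DNAJB genes in Aspp1-/-p53-/- and Aspp1-/- cells. It was drawn up by hand with the values known and was not checked against a full list of mitochondrial proteins. Its shared side may follow from that choice, and is a description and not a test. The 7 were Hspa9, Hspd1, Hspe1, Dnaja3, Dnajc15, Dnajc19 and Dnajc30. All lay above WT in Aspp1-/-p53-/- and in Aspp1-/- cells, at medians of 0.11 and 0.09. In p53-/- cells 4 of 7 did, with a median of 0.01. The 7 stayed above WT in Aspp1-/-p53-/- and Aspp1-/- cells under every setting tried, but in p53-/- cells none did with each array set to its median. Hspa9 (mortalin), the HSP70 that pulls proteins into the mitochondrial matrix, had signals of 13952, 13516, 14733 and 13190 in Aspp1-/-p53-/-, p53-/-, Aspp1-/- and WT cells, or 0.17, 0.01 and 0.09 against WT. Hspe1, the co-chaperonin, was at 0.13, −0.08 and 0.07 on its brightest probe, and at −0.10 in Aspp1-/-p53-/- cells on 1 of its 2 other probes. Every one of these is within its scanner error. The 8 chaperones of the endoplasmic reticulum were evenly divided in Aspp1-/-p53-/- cells, with 4 above and 4 below WT.

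The other measured small heat-shock genes with Hspb names, Hspb6, Hspb8 and Hspb9, had no shared direction, and Hspb8 and Hspb9 were dim. Hspb8, a partner of Bag3 in autophagy, had signals of 32.0 in Aspp1-/-p53-/-, 47.9 in p53-/-, 47.1 in Aspp1-/- and 44.8 in WT cells, and a log2 difference of −0.40 ± 0.34 (scanner error) in Aspp1-/-p53-/- against WT. Hspb6 was at −0.10, 0.14 and 0.01 and Hspb9 at 0.00, 0.16 and −0.21 in Aspp1-/-p53-/-, p53-/- and Aspp1-/- cells. The 9 genes outside the analysis were Hspb2, Hspb3, Hspb7, Hspa12a, Dnajb7, Dnajb8, Dnajb13, Dnajc22 and Dnajc5g, several of them muscle or testis genes. Just outside the brightness criterion stood Dnajb7, with at most 22.2 on any array, and just inside it Hspbap1, with 26.4.

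Loss of p53 was measured in 2 pairs of arrays that share no array, Aspp1-/-p53-/- against Aspp1-/- and p53-/- against WT. Of 61 chaperones, 26 were below 0 in both pairs and 14 above 0 in both, so that 65.6% kept their sign, against 61.3% of all genes. Across these genes, which are not independent and share the slide and the Cre difference, Pearson's r was 0.34 and Spearman's rho 0.35, against 0.37 and 0.34 for all genes. Loss of Aspp1, in Aspp1-/-p53-/- against p53-/- and in Aspp1-/- against WT, gave r = 0.04 and rho = 0.18 over the 61 chaperones, with 57.4% of the same sign, against r = 0.23 and 60.1% over all genes. Hspa1a lay above 0 in both pairs for either loss. Hspb1 was above 0 in 1 pair and below it in the other for either loss.

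**Figure D3:**
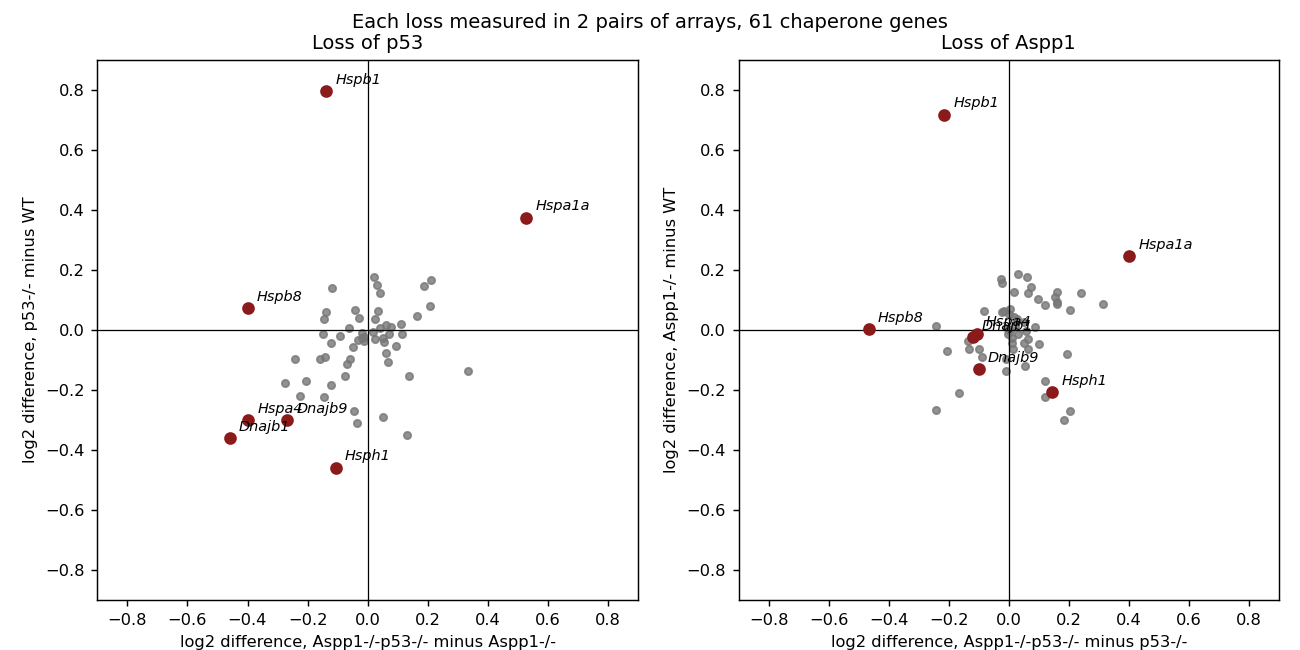
Log2 difference of 61 chaperone genes in 2 pairs of arrays that share none, for loss of p53 (left: Aspp1-/-p53-/- minus Aspp1-/- across, p53-/- minus WT up) and loss of Aspp1 (right: Aspp1-/-p53-/- minus p53-/- across, Aspp1-/- minus WT up). On the left Dnajb1, Hspa4, Dnajb9 and Hsph1 are below 0 on both axes and Hspa1a above 0 on both; Hspb1 is at the top left of both panels.

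Both p53-lacking arrays were below both others for 20 of 61 chaperones (32.8%), where 19.7% of all genes were, and above both for 6 (9.84%), where 21.9% were. Among the 20 were Dnajb1, Hsph1, Hspa4, Dnajb9, Hspa5, Dnaja1, Dnaja4 and the 3 HSP90 genes, and among the 6 were Hspa1a, Dnajc10, a disulfide reductase of the endoplasmic reticulum, and Dnajc7, a shared partner of HSP70 and HSP90. These counts rest on the scaling: with each array set to its median instead, which moved the median of all genes in p53-/- against WT by −0.13, they were 34 and 0, and 45.2% and 5.19% for all genes. Both Aspp1-lacking arrays were below both others for 6 chaperones (9.84%), against 16.2% of all genes, and above for 15 (24.6%), against 19.4%. With each array set to its median the 6 became 2, and the share of all genes was not computed there. The 15 included Hspa9, Hspd1 and Hspe1, and the 6 included Dnajc12, a partner of aromatic amino acid hydroxylases, with signals of 487 and 536 in Aspp1-/-p53-/- and Aspp1-/- cells, against 624 and 616 in p53-/- and WT cells.

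A limma fit with additive terms for both losses, with 1 residual degree of freedom, called no gene of 22929 at an adjusted p of 0.05. With an intensity trend in the same fit it called 117 genes for p53 and 2 for Aspp1, no chaperone among them. Among the 61 chaperones well above background on all arrays, 4 fell under an unadjusted threshold of 0.05 for p53, where 6.18% of all such genes did. That count depended on the fit. With the intensity trend 14 did, where 13.8% of all such genes did. Fitted only to probes above background on every array, 6 did, where 12.3% of all genes did. For the 4 genes of the fit without the trend, the p53 term was 0.45 ± 0.08 (SE) for Hspa1a, −0.41 ± 0.06 for Dnajb1, −0.35 ± 0.06 for Hspa4 and −0.28 ± 0.06 for Dnajb9. Each SE in this fit rests on the departure from additive effects and a prior over all genes. With 1 array per genotype, it is not a spread between replicates. None of these 4 genes passed after adjustment. The limma adjusted p was 0.65 for each, and with the intensity trend it was 0.052 for Dnajb1, 0.064 for Hspa1a, 0.072 for Hspa4 and 0.13 for Dnajb9. For Aspp1, 1 chaperone fell under the unadjusted threshold, where 3.80% of all such genes did. It was Dnajc12, with an Aspp1 term of −0.26 ± 0.06 (SE) and a limma adjusted p of 0.73. With the trend the lowest limma adjusted p of a chaperone for Aspp1 was 0.26, for Hspa1a.

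The regulators and partners of these chaperones differed by amounts of the same order. Hsf1 was at 0.09, 0.05 and 0.08 against WT in Aspp1-/-p53-/-, p53-/- and Aspp1-/- cells, and Hsf4 and Hsf5 were not well above background. Of 17 measured genes of the heat-shock core, which overlaps the members, 10 lay below WT in Aspp1-/-p53-/- and 14 in p53-/- cells, at medians of −0.05 and −0.14, and 8 in Aspp1-/- cells, with a median of 0.00. None of 25 co-chaperones passed 1.5-fold. Bag3, an HSF1 target that links HSP70 to autophagy, had signals of 1914 and 2108 in Aspp1-/-p53-/- and p53-/- cells, against 2483 in Aspp1-/- and 2717 in WT cells, or −0.41, −0.39 and −0.20 against WT. Bag1, another exchange factor of HSP70, had 25361, 27416 and 27917 in Aspp1-/-p53-/-, p53-/- and Aspp1-/- cells, against 20030 in WT cells, and so lay at 0.43, 0.43 and 0.41. Cdc37l1, related to the HSP90 kinase adaptor, was at 0.47, 0.29 and 0.16. The 8 subunits of the CCT chaperonin, which folds actin and tubulin, had medians of 0.04, 0.01 and 0.09. The 8 mitochondrial partners had medians of 0.03, 0.05 and 0.08, with Timm44, the anchor of mortalin at the import pore, at −0.31 in Aspp1-/-p53-/- cells.

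Of 19 genes of folding and the unfolded protein response in the endoplasmic reticulum, 1 passed 2-fold, Ddit3 (CHOP), a transcription factor of prolonged stress. Its signal was 797 in Aspp1-/-p53-/-, 1237 in p53-/- and 1724 in Aspp1-/- cells, against 2188 in WT cells, or −1.37, −0.85 and −0.41 on the log2 scale. Next lowest in Aspp1-/-p53-/- cells were Atf4, which activates Ddit3, at −0.82, −0.32 and −0.16, and Herpud1, a factor of degradation at that membrane, at −0.55, −0.41 and −0.21. Of the 19 genes 12 lay above WT in Aspp1-/-p53-/-, 11 in p53-/- and 10 in Aspp1-/- cells, and the list's medians were 0.06, 0.03 and 0.01. The highest in Aspp1-/-p53-/- cells was Pdia4, a protein disulfide isomerase, at 0.41, 0.11 and −0.01.

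Immediate-early genes, which are also known to be induced while cells are sorted, moved with the genotypes. All but 1 of 20 lay below WT in Aspp1-/-p53-/- cells (median −1.03), 11 of them past 2-fold, and 19 in p53-/- cells, with a median of −0.41. In Aspp1-/- cells 14 did, with a median of −0.08. Fos had signals of 56150, 98390, 114780 and 118960 in Aspp1-/-p53-/-, p53-/-, Aspp1-/- and WT cells, and Atf3, which Atf4 also activates, was at −3.48, −1.78 and −0.72 against WT. The part of these genes in the chaperone differences was not tested. The order of the 3 mutant arrays by the median of these genes was also that of Dnajb1 and Bag3, and the reverse of that of Hspa1a, while Hsph1 was lowest in p53-/- cells. Between the p53-lacking arrays Dnajb1 and Bag3 differed by only −0.12 and −0.02, with a scanner error of 0.20 for Dnajb1. The share of all genes with either order was not computed, so these orders are not shown to be particular to the genes named.

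**Figure D4:**
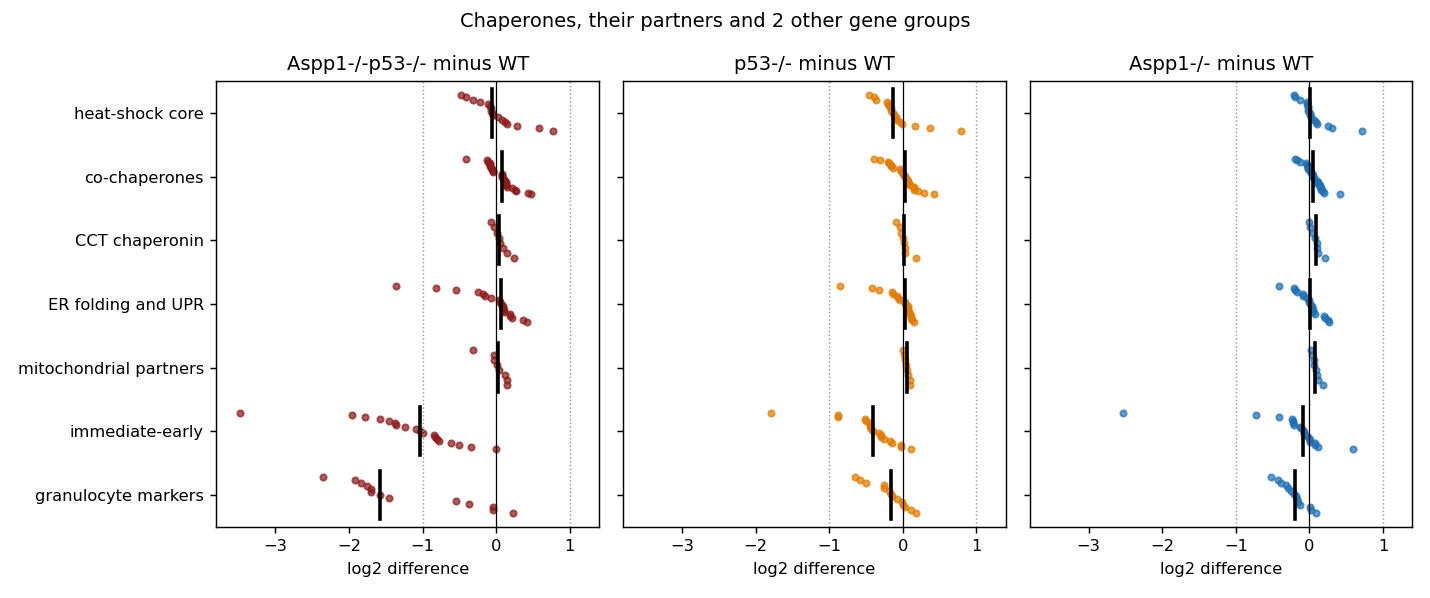
Log2 difference from WT (horizontal axis) of the genes of 7 lists, measured on both arrays, in Aspp1-/-p53-/-, p53-/- and Aspp1-/- cells; points are genes, black bars medians and dotted lines 2-fold. Medians of the chaperone and partner lists lie between −0.14 (heat-shock core, p53-/- cells) and 0.09 (CCT chaperonin, Aspp1-/- cells). The immediate-early list has medians of −1.03 and −0.41 and the granulocyte list −1.58 and −0.16 in Aspp1-/-p53-/- and p53-/- cells.

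The chaperone genes with a promoter window were also divided by the 2-unit heat-shock motif. The 14 members without a window, Hspa8, Hspa9, Hsp90aa1 and Hsp90ab1 among them, are in neither group. Among 12 measured genes with the motif, the median difference from WT was −0.02 in Aspp1-/-p53-/-, −0.03 in p53-/- and −0.01 in Aspp1-/- cells. Among those without it (39, 40 and 40 genes) it was 0.00, −0.02 and 0.01. Among chaperones measured on both arrays, the genes with the motif held both ends of the range in p53-/- cells, Hspb1 at 0.80 and Hsph1 at −0.46. Hspa1a and Hspb1, with the motif as printed, and Dnajb1, without it in these windows, were the 3 with the largest differences from WT in Aspp1-/-p53-/- cells.

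Where a gene had several probes, they often differed. A further probe had the sign of the brightest in 19 of 30 cases in Aspp1-/-p53-/- against WT, 22 of 30 in p53-/- against WT, 20 of 32 in Aspp1-/- against WT, 17 of 29 in Aspp1-/-p53-/- against p53-/- and 14 of 31 in Aspp1-/-p53-/- against Aspp1-/-. Over 20 genes with 2 or more probes well above background throughout, the gap between a gene's probes in Aspp1-/-p53-/- against WT had a median of 0.18, about as large as the scanner error. Probes of Dnajb9, Hsph1, Dnajc21 and Dnajb6 stayed below 0 and those of Dnajc24 and Dnajc19 above it, while Hspa4, Dnaja1, Dnajb14 and Dnajc14 had probes on both sides. Hspa1a, Hspb1 and Dnajb1 each had 1 probe, so this comparison does not cover them.

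**Figure D5:**
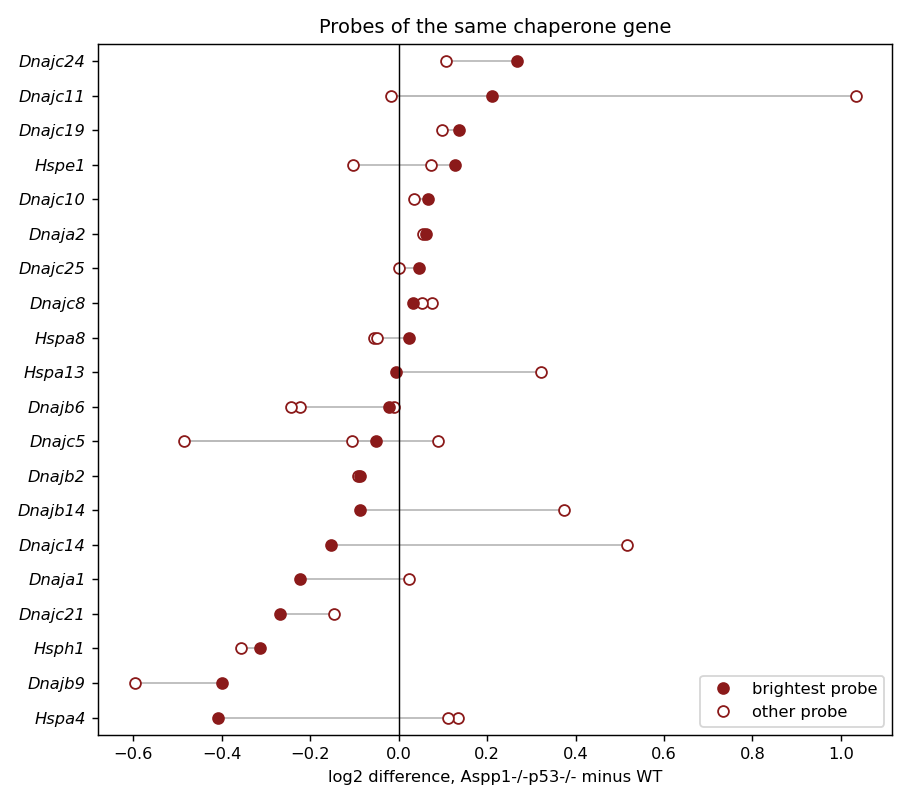
Log2 difference of Aspp1-/-p53-/- minus WT (horizontal axis) on every probe of the 20 chaperone genes with 2 or more probes well above background on all arrays; filled points are the brightest probe, open points the others. Both Dnajb9 probes are at or below −0.40 and both Hsph1 probes at or below −0.31, while the Hspa4 probes lie between −0.41 and 0.13.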

How the data were processed

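One-colour (Cy3) Agilent arrays of design 028005 were scanned and read by Agilent's Feature Extraction software (version 10.7.3.1), with probe positions on mm9, per the file headers. Intensity as deposited had its background taken off and was not normalised between arrays, per the file headers. Other deposited values mark, as 0 or 1, whether a spot is well above background, saturated or outlying. The authors' deposited table holds log2 values. Across probes, its differences from WT matched the scanner files (r = 1), each probe being centred on its median over the arrays. Its column medians were 0.0479, 0.0267, −0.0422 and −0.0661 for Aspp1-/-p53-/-, p53-/-, Aspp1-/- and WT, and the constant taken off each array is unknown.

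Control spots and outlier spots (172, 171, 121 and 120 on the same arrays) were dropped, repeated spots averaged, and log2 intensity was set relative to the 75th percentile of the gene spots, a signal of 535, 580, 597 and 570. Of 55681 probes 26863 were named through a RefSeq accession, 3752 through the symbol in the file, and 25066 have no RefSeq gene here. Pairs of arrays were compared by size, at 2-fold and 1.5-fold. Where the dimmer probe was not well above background, the difference is a bound, against the higher of its own signal and the lowest signal well above background on that array. The additive model was fitted with limma 3.58.1 in R 4.3.3 with Benjamini-Hochberg adjustment over all genes, and tested on simulated data. Python 3.11.15 with pandas 2.3.3 did the rest. Precision is limited by the number of arrays. In all, 7 alternatives were tried for the differences, with an intensity trend for the model.

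The genes named are those past 2-fold, the 5 highest and 5 lowest members per comparison, 14 well-known members, and the extremes of each partner list. Others are given as examples of their family. The members, lists and rules were chosen with earlier results of these data known.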

Additional observations from a re-analysis of the deposited data

Results flagged for a closer look

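Hspb1, the gene of HSP27, lay on opposite sides in the 2 comparisons of the loss of Aspp1. In Aspp1-/-p53-/- against p53-/- cells its log2 difference was −0.21, and in Aspp1-/- against WT cells it was 0.72, each with a scanner error of 0.20. The difference between the 2 values was not tested, since each genotype has 1 array. Over the other ways of processing the first lay between −0.22 and −0.14 and the second between 0.68 and 0.75. Hspb1 has 1 probe, so averaging a gene's probes, or keeping those above background on every array, could not change these values. The 2 comparisons share no array, and Hspb1 signals were 4615, 5804 and 5661 in Aspp1-/-p53-/-, p53-/- and Aspp1-/- cells, against 3287 in WT cells, the lowest of the 4.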

How the results depend on the processing

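No paired analysis was possible because each genotype has 1 array. The counts of all genes past 2-fold depended on the treatment of dim probes. With normexp background correction they were 521 in Aspp1-/-p53-/- against WT, 462 in p53-/- against WT, 218 in Aspp1-/- against WT, 551 in Aspp1-/-p53-/- against p53-/- and 492 in Aspp1-/-p53-/- against Aspp1-/-, in place of 1292, 1116, 751, 1230 and 1214. Restricted to probes that cleared background on every array, they were 440, 209, 100, 274 and 305. Genes departing from additive effects by 2-fold numbered 348, against 144 with normexp and 602 with the mean of a gene's probes. With an intensity trend in limma, 117 genes passed an adjusted p of 0.05 for p53 and 2 for Aspp1, in place of 0 and 0 (1728 and 1092 at an unadjusted p under 0.05), and no chaperone did (lowest adjusted p 0.052 for p53 and 0.26 for Aspp1). Fitted to the probes that cleared background on every array, the lowest limma adjusted p of a chaperone was 0.31 for p53 and 0.56 for Aspp1.

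Chaperones past 1.5-fold in Aspp1-/- against WT numbered 2, and 1 with normexp or with the probes that cleared background on every array. In p53-/- against WT there were 2, and 1 with those probes. In Aspp1-/-p53-/- against WT there was 1, and 3 in the authors' table. In Aspp1-/-p53-/- against p53-/- there was 1, and 0 with normexp or those probes, and 2 with the mean of probes. With each array set to its median, both p53-lacking arrays were below the other 2 for 34 chaperones, in place of 20. They were above the other 2 for 0 chaperones, in place of 6. For all genes these shares were 45.2% and 5.19%, in place of 19.7% and 21.9%. Both Aspp1-lacking arrays were below the other 2 for 2 chaperones, in place of 6, and the share of all genes was not computed there. Of 1132 values of the 33 named members under the alternatives, 52 took the other sign, none of them among the 187 whose size was 0.3 or more. No alternative was set up to use a gene's dimmer probes alone, so dependence on the probe enters only through the mean of probes. Hspa4 in Aspp1-/-p53-/- against WT ran from −0.41 to 0.13 over its probes.

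With 1 array per genotype, pooled from 3 mice, no difference has a replicate spread, and genotype cannot be told apart from the array it was measured on. Most chaperone differences here are within the scanner error of 0.20.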

Other observations

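A pair of probes without a chaperone symbol are described in the files as chaperone transcripts. The one described as HSP27 was not well above background on any array. The one described as Dnajc19 had signals of 879, 972, 1000 and 941 in Aspp1-/-p53-/-, p53-/-, Aspp1-/- and WT cells, and its differences in the 5 comparisons lay between −0.03 and 0.02.

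The dimmer Dnajb5 probe, not well above background in Aspp1-/-p53-/- cells, stood apart on the p53-/- array, with signals of 19.1, 110, 24.9 and 20.5 in Aspp1-/-p53-/-, p53-/-, Aspp1-/- and WT cells, or 2.40 in p53-/- against WT. The brighter Dnajb5 probe was at −0.01 in the same comparison. Dnajc5b was well above background on the p53-/- array alone.

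The dimmest Dnajc11 probe had signals of 52.4, 42.2, 38.7 and 27.2 in Aspp1-/-p53-/-, p53-/-, Aspp1-/- and WT cells and was 1.03 above WT in Aspp1-/-p53-/- cells, where the brightest Dnajc11 probe was at 0.21.

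The p53-/- array was the lowest of the 4 for 20 of 61 chaperones, a larger share than the 15.5% of all genes. It was the highest for 6, a smaller share than the 18.6% of all genes. These ranks rest on the scaling, since setting each array to its median moved the median of all genes in p53-/- against WT by −0.13.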
